A study of Homo sapiens with 9 samples.

Results

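Albumin (ALB), alpha-fetoprotein (AFP) and 8 further plasma proteins made by the liver were followed through a THZ531 treatment of 3 human liver cancer cell lines. The 10 genes were chosen by name, as protein-coding rows of the deposited count table: ALB, AFP, TTR, TF, SERPINA1, VTN, AHSG, HP, RBP4 and AMBP. They are 10 of the 32990 genes in the table, and all 10 passed the filter on low counts in every fit. THZ531 is a covalent inhibitor of the transcription-elongation kinases CDK12 and CDK13. Huh7, Hep3B and SNU449 cells were each sequenced at 500 nM, at 250 nM and untreated, with 1 polyA RNA library for each line and dose, 9 in all. The sample characteristics give 48 hours for every treated library, whereas the treatment protocol gives 24 hours for Hep3B and Huh7 and 48 hours for SNU449, so the time is uncertain for Huh7 and Hep3B. All cells were grown in DMEM with 10% fetal bovine serum. No label says that the libraries came from separately grown cultures, so p-values measure only the spread between these libraries, which may be technical. In the fits below that spread also takes in differences in response between lines or between doses.

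Hepatocytes secrete most of the protein in blood plasma. Albumin is the main plasma protein in adults and carries fatty acids, hormones and drugs. AFP is its fetal relative, is silenced in the liver after birth, and is made again by many liver cancers, where it serves as a blood marker. The other genes encode transthyretin (TTR), a carrier of thyroid hormone and of the retinol-binding protein encoded by RBP4; transferrin (TF), the iron carrier; alpha-1-antitrypsin (SERPINA1), an inhibitor of neutrophil elastase; vitronectin (VTN), an adhesion protein; fetuin-A (AHSG), an inhibitor of mineral deposition; haptoglobin (HP), which binds free haemoglobin; and the precursor of alpha-1-microglobulin and bikunin (AMBP).

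ALB and AFP lie next to each other on chromosome 4 in the same orientation. In the deposited annotation ALB spans chr4:73397114-73421412 and AFP spans chr4:73431138-73456174. Their promoters are shown because the levels of these neighbours were opposed in Huh7 and Hep3B, as the counts further on show. Each stretch runs from 150 bases before to 15 bases after the RefSeq transcription start on the plus strand of GRCh38.p14, and the capitals mark the CCAAT box, a common promoter element, read on either strand (a minus-strand CCAAT is printed as ATTGG).
ALB, chr4:73404137-73404301: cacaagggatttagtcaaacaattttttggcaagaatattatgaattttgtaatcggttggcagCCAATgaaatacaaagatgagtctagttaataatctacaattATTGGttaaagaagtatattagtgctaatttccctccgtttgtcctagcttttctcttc
AFP, chr4:73436071-73436235: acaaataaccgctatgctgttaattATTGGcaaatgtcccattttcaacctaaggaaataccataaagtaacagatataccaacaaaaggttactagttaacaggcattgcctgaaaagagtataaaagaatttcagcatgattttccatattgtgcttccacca
The CCAAT letters begin 86 bases before the start of ALB on the plus strand and 44 bases before it on the minus strand, and 125 bases before the start of AFP on the minus strand. RefSeq promoters covering 250 bases before to 50 after the start were matched for 8 of the 10 genes, the exceptions being TTR and HP. On either strand, CCAAT was present in 4 of the 8 (ALB, AFP, VTN and AMBP) and in 34.6% of 35116 human promoters of the same length. The C/EBP core TTGCNNAA was present in 4 of the 8 (ALB, AFP, VTN and AHSG) and in 10.5% of all promoters. TATAAA was present in AFP and RBP4 and in 11.5% of all promoters, and the FOXA core TGTTTAC in none of the 8 and in 3.42%. The window matched for TF lies far upstream of the gene's position in the count table. Those of ALB, AFP and VTN lie wholly inside the deposited gene spans, so their RefSeq start is not the deposited gene start. These matches describe letters only.

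Library totals ranged from 5701981 to 20657610 counts. The Huh7 libraries held 14423043, 8557515 and 5701981 counts at 0, 250 and 500 nM, and the Hep3B libraries 20657610, 13325709 and 11582266. The mitochondrial share was 3.85, 8.14 and 13.1% in Huh7 and 4.28, 10.6 and 12.4% in Hep3B, and 4.32 to 4.47% in SNU449. Depth and this share thus moved with dose in Huh7 and Hep3B, and their part in the results below was not tested. Levels are CPM (counts scaled to a common library size) after trimmed-mean (TMM) scaling, which sets each library against the bulk of its own genes. They are therefore relative levels, and fewer cells expressing a gene cannot be told apart from less RNA per cell. Scaling by the total count instead moved the median of all genes from -0.07 to -0.82 on the log2 scale at 500 nM against control, and from -0.06 to -0.51 at 250 nM, so directions are given relative to that median and by both scalings where they part. The 12 hepatocyte markers outside the 10 genes summed to 5209, 5307 and 9447 CPM in Huh7 at 0, 250 and 500 nM. In Hep3B they summed to 9153, 6264 and 8220 CPM, and in SNU449 to 65.6 to 72.8 CPM. Of these sums APOB gave 5544, 1301 and 1522 CPM in Hep3B and 2586, 956.1 and 1624 CPM in Huh7. Among these markers the transcription factor HNF4A had 1 to 3 counts per SNU449 library. CPS1 went the other way and gave most of the SNU449 sum, with 62.4, 59.0 and 65.6 CPM at 0, 250 and 500 nM. It stood at 17.25 to 32.2 CPM in Huh7 and at 1.10 to 8.98 CPM in Hep3B.

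Untreated Huh7 and Hep3B cells held transcripts of the same plasma proteins in very different proportions, with HP low in both (2.60 and 2.21 CPM). ALB had 41331, 53640 and 49339 counts in Huh7 at 0, 250 and 500 nM, and 425754, 281911 and 336300 counts in Hep3B. AFP had 218164, 189949 and 205372 counts in Huh7, and 13725, 7226 and 9603 counts in Hep3B. All 3 Huh7 libraries were thus above all 3 Hep3B libraries for AFP and below them for ALB. The ratio of ALB to AFP counts, which no scaling alters, was 0.189 in untreated Huh7 (95% counting interval 0.188 to 0.192) and 31.02 in untreated Hep3B (30.5 to 31.6). Such intervals cover counting error only. AFP made up 62.1% of the counts of the 10 genes in untreated Huh7 and 2.32% in untreated Hep3B. ALB made up 11.8% in untreated Huh7 and 72.1% in untreated Hep3B.

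Per kilobase of coding sequence, AFP was the 2nd highest of 17456 protein-coding genes in untreated Huh7 at 6466 CPM per kb, and the 351st in untreated Hep3B at 300.3 CPM per kb. ALB was the 38th in untreated Huh7 at 1251 CPM per kb and the highest of all in untreated Hep3B at 9515 CPM per kb. In untreated Huh7 the other levels ran from SERPINA1 (1428 CPM per kb) and AMBP (1330) through VTN (519.7), TF (323.7), TTR (291.6), RBP4 (181.9) and AHSG (156.2) to HP (1.96). In untreated Hep3B AHSG followed ALB at 1774 CPM per kb, then SERPINA1 (992.6), RBP4 (894.7), TF (795.1), AMBP (380.7), AFP (300.3), TTR (264.0), VTN (154.0) and HP (1.66). With 1 library per line and dose, these orders have no spread to set neighbours against. Levels had been planned per kilobase of exonic length, and the coding length used above departs from that. The orders changed with the union of exons as the length. TF, whose exons sum to 26199 bases, fell to 9th place in untreated Huh7 and 8th in untreated Hep3B. In untreated Huh7 SERPINA1 fell below AMBP and ALB (365.4 against 676.8 CPM per kb for ALB), and TTR below RBP4 and AHSG. In untreated Hep3B RBP4 moved above SERPINA1, and VTN above TTR. AFP in untreated Huh7 and ALB in untreated Hep3B stayed highest among the 10 genes.

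Over the 3 doses, 8 of the 10 genes differed between Huh7 and Hep3B by edgeR's quasi-likelihood test at an adjusted p under 0.05, where 40.9% of all 15191 tested genes did. AFP was higher in Huh7 by 5.16 ± 0.38 on the log2 scale (SE, 3 libraries each, 1 per dose, edgeR adjusted p = 2.52e-09), or 35.9-fold. AMBP was higher in Huh7 by 2.26 ± 0.29 and VTN by 2.24 ± 0.28. SERPINA1 was higher in Huh7 by 1.15 ± 0.30, and HP by 1.14 ± 0.45 at a few CPM (edgeR adjusted p = 0.0471). AHSG was lower in Huh7, with a log2 difference of -2.56 ± 0.32, as were ALB at -2.05 ± 0.34 and RBP4 at -1.62 ± 0.27. TTR (0.39 ± 0.24; edgeR adjusted p = 0.202) and TF (-0.50 ± 0.30; edgeR adjusted p = 0.194) did not pass.

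**Figure D1:**
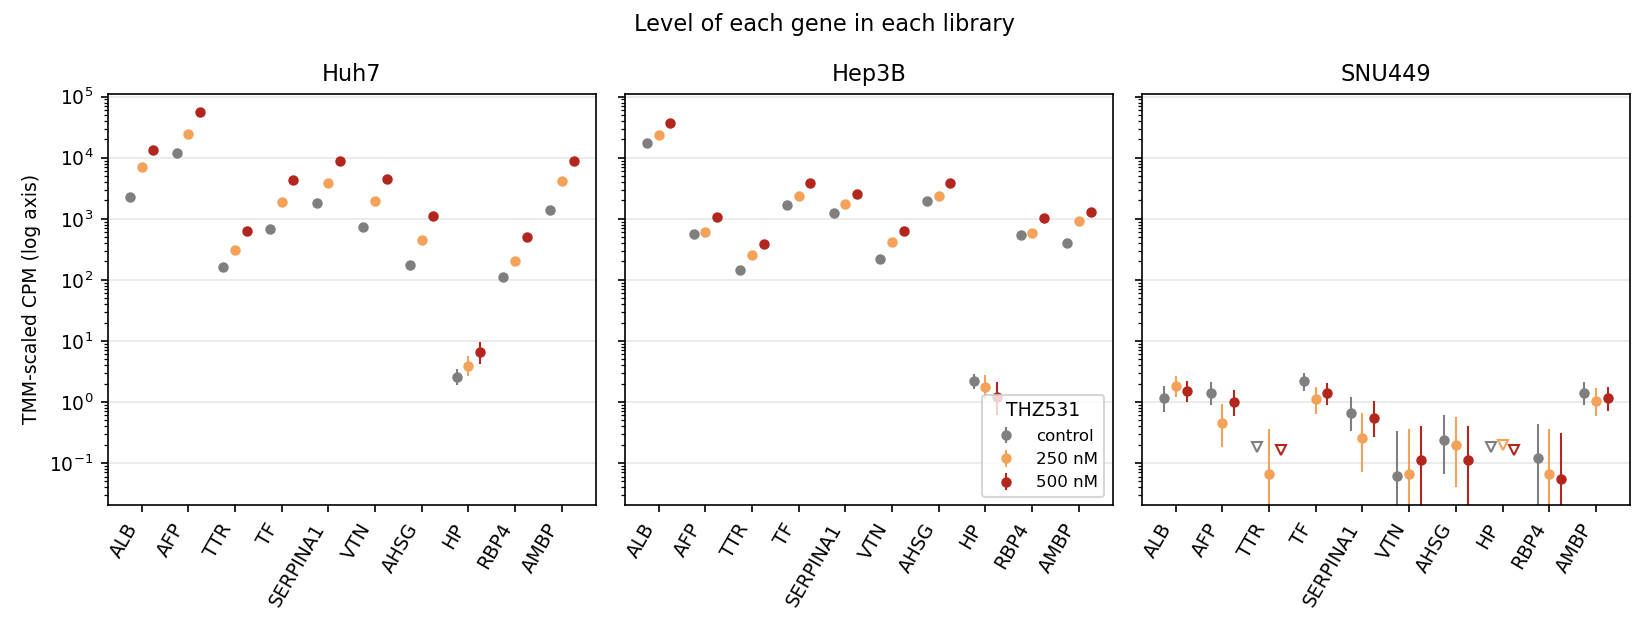
TMM-scaled CPM (log axis) of the 10 genes in each library of Huh7, Hep3B and SNU449, coloured by THZ531 dose; bars are 95% counting intervals and open triangles mark a limit of 3 counts for a gene at 0. Levels in Huh7 and Hep3B step up with dose for 9 genes, HP lies near 1 to 6 CPM, and SNU449 levels are near 1 CPM or below.

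SNU449 cells held almost none of these transcripts at any dose. The 10 genes together had 119, 78 and 106 counts at 0, 250 and 500 nM, against 340907 to 361444 in Huh7 and 391782 to 590829 in Hep3B. They made up 0.000849, 0.000606 and 0.000682% of the SNU449 libraries. ALB had 19, 28 and 27 counts, AFP 23, 7 and 18, TF 36, 17 and 25, and AMBP 23, 16 and 21. HP had 0 counts in all 3 libraries, which allows up to 3 counts in each. The 10 genes passed the filter on low counts through Huh7 and Hep3B, so no test of treatment is given for them in SNU449.

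Relative levels of 9 of the 10 genes were higher at 500 nM THZ531 than in controls when Huh7 and Hep3B were fitted jointly. The fit used 6 libraries with line and dose as terms, leaving 2 residual degrees of freedom. With 1 library per line and dose, a difference between the lines in their response counts as spread there. In that fit edgeR called 22.7% of all tested genes higher at 500 nM than in controls. The median log2 difference of the 10 genes was 1.72, against -0.07 for all tested genes. Scaled by total count the 10 genes' median was 0.957 and 9 genes were higher, where edgeR called 12.9% of all tested genes higher. Leaving out the untreated Huh7 library leaves 1 control. Fewer of the 10 genes then passed, and their median log2 difference was 1.21. With all 9 libraries in the fit 2 genes passed, VTN and TTR, where edgeR called 3.45% of genes higher.

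ALB, AFP, TTR, RBP4 and TF rose at 500 nM. ALB stood at 2286, 7008 and 13320 CPM in the Huh7 libraries, against 17380, 23820 and 36910 CPM in the Hep3B ones at 0, 250 and 500 nM. ALB stood higher at each dose step in both lines, and the fitted log2 difference of 500 nM against control was 1.77 ± 0.42 (SE; edgeR adjusted p = 0.0025). AFP stood at 12060, 24820 and 55420 CPM in the Huh7 libraries, against 560.4, 610.7 and 1054 CPM in the Hep3B ones. The step at 250 nM was small in Hep3B, and AFP had the least fitted difference of the 9 genes called, 1.53 ± 0.40 (edgeR adjusted p = 0.00539).

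TTR stood at 161.8, 312.4 and 632.3 CPM in the Huh7 libraries, against 146.5, 252.8 and 381.3 CPM in the Hep3B ones. The fitted log2 difference at 500 nM was 1.67 ± 0.30. RBP4, whose protein travels bound to transthyretin, stood at 109.7, 200.2 and 507.9 CPM in the Huh7 libraries, against 539.5, 583.6 and 1031 CPM in the Hep3B ones. Its fitted log2 difference at 500 nM was 1.55 ± 0.33, with little of it present at 250 nM in Hep3B. TF stood at 677.8, 1849 and 4276 CPM in the Huh7 libraries, against 1665, 2338 and 3910 CPM in the Hep3B ones, and the fitted log2 difference of 500 nM against control was 1.91 ± 0.37. At 500 nM the TF level in Huh7 was above that in Hep3B on the TMM scale and below it by total count (2779 CPM in Huh7 and 3075 CPM in Hep3B), and in controls it was below on both.

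AMBP, VTN, SERPINA1 and AHSG also rose at 500 nM. AMBP, which yields the inhibitor bikunin, had the largest fitted difference of the 10 genes, 2.18 ± 0.36 (edgeR adjusted p = 0.000128). It stood at 1405, 4108 and 9005 CPM in the Huh7 libraries, against 402.0, 915.0 and 1288 CPM in the Hep3B ones. VTN stood at 745.2, 1943 and 4420 CPM in the Huh7 libraries, against 220.9, 424.1 and 642.3 CPM in the Hep3B ones, and the fitted log2 difference of 500 nM against control was 2.05 ± 0.34. For AMBP and VTN every treated library was above the control of its line, also when scaled by total count. The same held for TTR, and for ALB, TF and SERPINA1. For these last genes the total-count log2 ratios at 250 nM in Hep3B were small, at 0.038, 0.073 and 0.081. SERPINA1 stood at 1791, 3841 and 8832 CPM in the Huh7 libraries, against 1245, 1758 and 2534 CPM in the Hep3B ones, and the fitted log2 difference of 500 nM against control was 1.66 ± 0.37. AHSG stood at 172.5, 457.4 and 1125 CPM in the Huh7 libraries, against 1959, 2401 and 3912 CPM in the Hep3B ones, and the fitted log2 difference of 500 nM against control was 1.81 ± 0.39.

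HP was the exception. It had 47, 30 and 24 counts in Huh7 and 54, 21 and 11 counts in Hep3B at 0, 250 and 500 nM, or 2.60, 3.92 and 6.48 CPM in Huh7 and 2.21, 1.78 and 1.21 CPM in Hep3B. The levels went up with dose in Huh7 and down in Hep3B on the TMM scale. The fitted difference was 0.29 ± 0.55 (edgeR adjusted p = 0.70), and by total count it was -0.48. HP also has a near-identical neighbour, HPR, which can take or lend reads, and overlaps TXNL4B on the opposite strand. Of the other genes, TF overlaps pseudogenes on its own strand, and VTN and RBP4 overlap SARM1 and FFAR4 on the opposite strand, each with far fewer counts than the carrier. Whether counting used strand is not given in the sources used here.

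**Figure D2:**
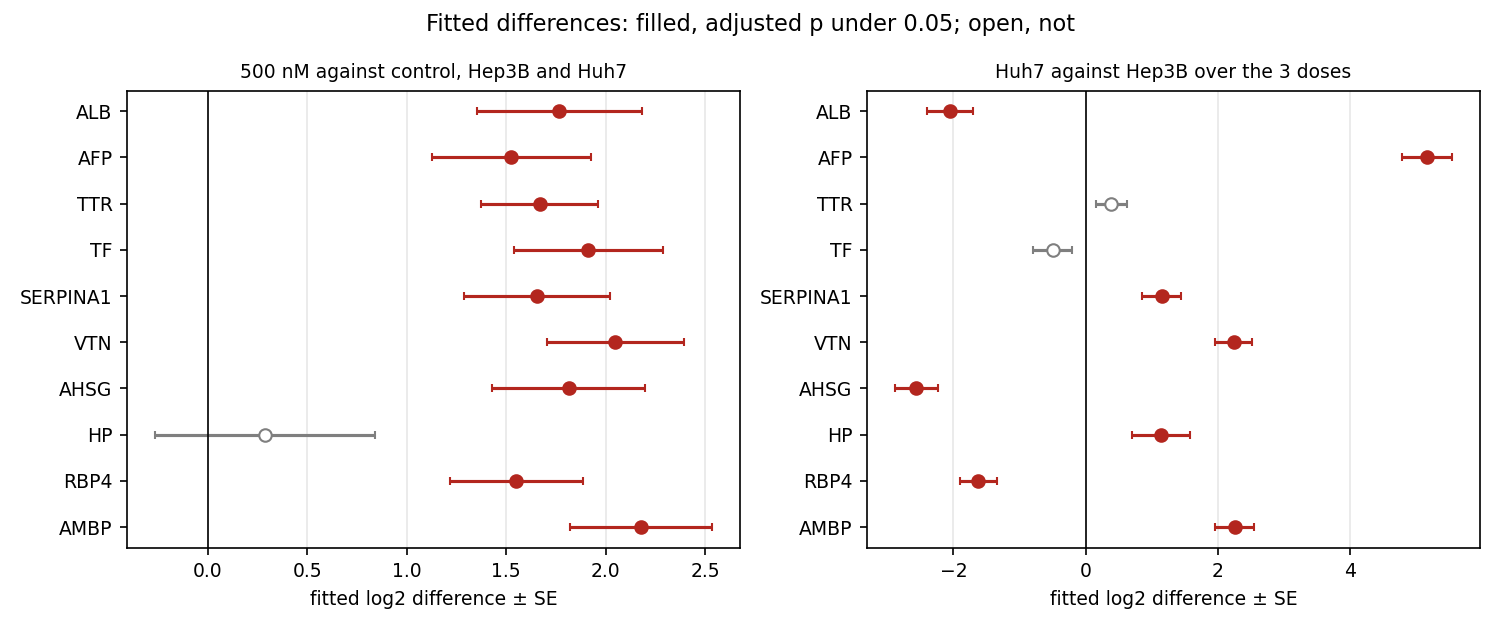
Fitted log2 differences with their SE for the 10 genes: 500 nM against control in Huh7 and Hep3B (left) and Huh7 against Hep3B over the 3 doses (right); filled points passed an adjusted p of 0.05. At 500 nM 9 genes lie between 1.53 and 2.18 and HP at 0.29, whereas between lines they run from -2.56 for AHSG to 5.16 for AFP.

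At 250 nM TTR (0.86 ± 0.29), VTN (1.13 ± 0.33) and AMBP (1.34 ± 0.35) passed, 3 of the 10 genes, where edgeR called 15.6% of all tested genes higher. ALB (0.97 ± 0.41; edgeR adjusted p = 0.0854) and TF (0.91 ± 0.36; edgeR adjusted p = 0.0715) did not pass. These calls did not hold without the 250 nM library of either line or the untreated Huh7 library, and more genes passed without any other library. Each such fit leaves 1 library at a dose. The median log2 difference of the 10 genes was 0.812 with all 6 libraries. It was 0.854 and 0.812 without the 250 nM library of Hep3B and of Huh7. Without the untreated library it was 1.345 for Hep3B and 0.419 for Huh7, and without the 500 nM library 0.849 and 0.853. Between 500 and 250 nM, 0 of the 10 genes passed with edgeR, where 0.0329% of all tested genes did. There 8 of the 10 were at an unadjusted p under 0.05, where 16.6% of all tested genes were, and DESeq2 called 0. Without the 500 nM library of Hep3B edgeR called 8 of the 10 and 3.43% of all tested genes. The log2 differences between these doses ran from 0.21 (HP) to 1.11 (RBP4), and all 10 were above 0.

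Within lines, the ratios to the untreated library were larger in Huh7 than in Hep3B for every gene on the TMM scale at 500 nM. The median log2 ratio of the 10 genes was 1.24 at 250 nM and 2.42 at 500 nM in Huh7, and 0.472 at 250 nM and 1.06 at 500 nM in Hep3B. Over all tested genes these medians lay between -0.07 and 0.0. Among 5217 protein-coding genes of the same range of gene span (5816 to 33051 bases) the medians were 0.04 and 0.12 in Huh7 and -0.07 and 0.0 in Hep3B. Among 1057 protein-coding genes at 100 CPM per kb or more in both controls Huh7 gave 0.27 and 0.37, and Hep3B gave 0.26 and 0.55.

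In Huh7 the largest log2 ratios at 500 nM were those of AHSG (2.71), AMBP (2.68) and TF (2.66). In Hep3B they were those of AMBP (1.68), VTN (1.54) and TTR (1.38). TTR thus stood among the top 3 in Hep3B and had the 2nd lowest ratio in Huh7, 1.97. By total count, AFP, AHSG and RBP4 at 250 nM in Hep3B lay below 0, at -0.29, -0.12 and -0.30, whereas the TMM ratios were 0.12, 0.29 and 0.11.

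**Figure D3:**
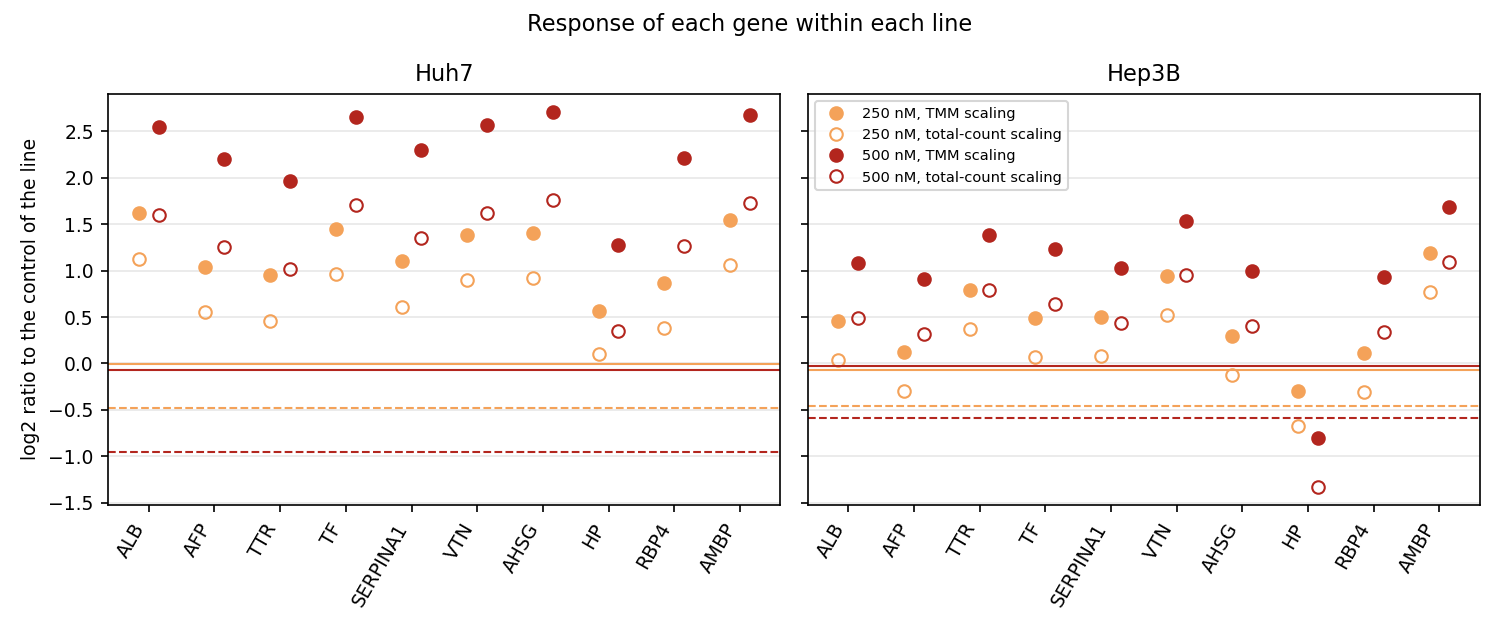
Log2 ratio of each treated library to the untreated library of its line for the 10 genes in Huh7 and Hep3B, by TMM scaling (filled) and total-count scaling (open); lines are the medians of all tested genes, solid for TMM and dashed for total count. Every gene but HP lies above the median line of its own scaling in all 4 treated libraries, and HP does so in Huh7.

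With both treated libraries of a line set against its control, 8 of the 10 genes passed in Huh7, where edgeR called 13.3% of all 15479 tested genes higher. AFP (1.73 ± 0.59; edgeR adjusted p = 0.0569) and HP (0.96 ± 0.57) did not pass, and RBP4 passed narrowly (1.69 ± 0.55; edgeR adjusted p = 0.05). The calls did not hold without the 250 or the 500 nM library of Hep3B, which share in the estimate of spread. The median log2 difference of the 10 genes in Huh7 was then 1.851 and 1.853, against 1.958 with all libraries. Only part of the calls held without the 500 nM library of Huh7, where that median was 1.116. In Hep3B 0 of the 10 genes passed with edgeR, where 9.82% of all tested genes were called higher. In that line 3 of the 10 were at an unadjusted p under 0.05, near the 33.7% of all tested genes, and DESeq2 called 2. Without the 250 or the 500 nM library of Huh7 6 passed, where 18.7 and 18.5% of all tested genes were called higher. The difference of the 2 responses, Huh7 minus Hep3B, ran from 0.43 ± 0.64 (TTR) to 1.51 ± 0.72 (AHSG), and 0 of the 10 genes passed with edgeR. Among all tested genes 0.00646% passed, 0 of the 10 were at an unadjusted p under 0.05, and DESeq2 called 0. The unadjusted count was 9 without the 250 nM library of Huh7, where 15.8% of all tested genes were under that limit, and 6 with no filter on low counts, where 4.55% were. The median difference of the 10 genes was 1.14, and 0.255 without the 500 nM library of Huh7. A larger response in Huh7 is therefore not shown by the test. Nor does a gene that did not pass show that the lines responded alike.

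The proportions among the 10 genes moved little with dose beside the gap between lines. The ALB to AFP count ratio was 0.189, 0.282 and 0.240 in Huh7 and 31.02, 39.01 and 35.02 in Hep3B at 0, 250 and 500 nM. Both lines were highest at 250 nM and lowest in controls. The share of AFP among the 10 genes was 62.1, 55.7 and 56.8% in Huh7, and that of ALB was 72.1, 72.0 and 71.4% in Hep3B. AMBP gained share in both lines, with 7.23, 9.22 and 9.23% in Huh7 and 1.67, 2.76 and 2.49% in Hep3B. So did VTN, with 3.84, 4.36 and 4.53% in Huh7 and 0.916, 1.28 and 1.24% in Hep3B. TF also gained, with 3.49, 4.15 and 4.38% in Huh7 and 6.90, 7.06 and 7.57% in Hep3B. The 10 genes together took 2.43, 3.98 and 6.34% of all counts in Huh7 and 2.86, 2.94 and 4.06% in Hep3B. With 1 library per line and dose these ratios and shares have no replicate check.

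**Figure D4:**
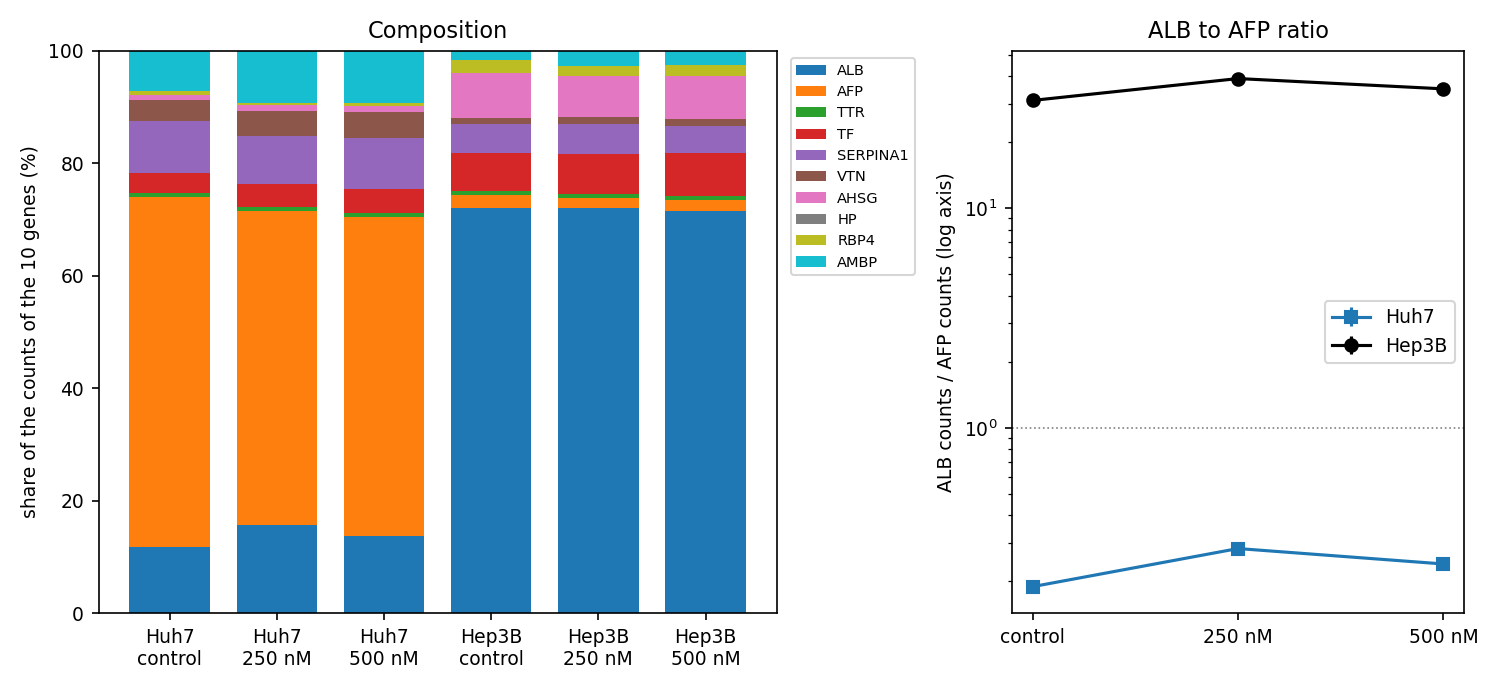
Left, the share of each gene in the counts of the 10 genes (%) for the libraries of Huh7 and Hep3B. Right, the ratio of ALB to AFP counts (log axis) by dose with 95% counting intervals, mostly narrower than the symbols; it stays near 0.2 to 0.3 in Huh7 and between 31.02 and 39.01 in Hep3B.

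Patterns close to these were sought among 9402 protein-coding genes with at least 100 counts in both controls, as the distance over the 4 within-line log2 ratios. The nearest to ALB outside the set were CTSD (0.284), NAGPA, TMEM129, LYZ and AGT (0.359). The nearest to AFP were HPX (0.234), F2, GAA, ARSA and ORM1 (0.321). Inside the set TF was nearest to ALB at 0.253, and RBP4 to AFP at 0.175, while the distance between ALB and AFP was 0.767. These distances rest on 4 ratios that share 2 control libraries.

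Of 26 other secreted liver proteins tested, in a list of 35, 15 were higher and 0 lower at 500 nM, with a median log2 difference of 0.88. Among all tested genes edgeR called 22.7% higher and 18.9% lower. By total count the split was 5 higher and 3 lower, with a median of 0.155, where 12.9% of all tested genes were called higher and 46.7% lower. These shares are the background for the lists that follow as well. With all 9 libraries 2 were higher and 0 lower, where edgeR called 3.45% of all tested genes higher and 0.724% lower. These shares, too, are the background for the 9-library counts of the lists that follow. Fewer were higher without the untreated or the 500 nM library of Huh7, and each such fit leaves 1 library at a dose. A2M, a broad protease inhibitor, was higher by 1.93 ± 0.36, GC, the vitamin D carrier, by 1.93 ± 0.39, SERPINF1 by 1.56 ± 0.31 and HPX, the haem carrier, by 1.498 ± 0.324. At 250 nM 0 of the 26 passed in either direction, where edgeR called 15.6% of all tested genes higher and 10.2% lower. DESeq2 called 1 higher, and 13.9% of all tested genes. By total count 3 were lower, where edgeR called 27.2% of all tested genes lower. The counts at that dose changed with the library left out, and each such fit leaves 1 library at a dose.

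Of the listed genes beside a carrier, 5 were tested, and on the TMM scale 0 of them passed at 500 nM. AFM, the albumin-family gene beside AFP, had a log2 difference of 0.29 ± 0.51 (edgeR adjusted p = 0.674). SERPINA6 (-0.06 ± 0.29) and SERPINA10 (-0.78 ± 0.44), relatives near SERPINA1, did not pass on that scale, nor did FETUB (-0.21 ± 0.57) and HRG (0.10 ± 0.67) beside AHSG. By total count SERPINA6 (-0.81 ± 0.32; edgeR adjusted p = 0.0328) and SERPINA10 (-1.52 ± 0.43; edgeR adjusted p = 0.0036) were lower.

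Of 20 hepatocyte transcription factor genes, 11 were lower and 4 higher at 500 nM, with a median of -0.82, and by total count 14 were lower and 0 higher. With all 9 libraries 1 was lower and 1 higher. ONECUT2 (-1.33 ± 0.27), FOXA3 (-1.31 ± 0.27) and HNF4G (-1.98 ± 0.41) were among those that fell. HNF4A, also among the 20, was lower by the test (-1.21 ± 0.29). In the same libraries the 9 carriers were higher, and the files hold no measure that links the factors to the carriers.

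Among 15 genes known to regulate AFP or to share its fetal pattern, 5 were higher and 5 lower, and by total count 3 were higher and 7 lower. With all 9 libraries 1 was higher and 2 lower. ZHX2, a repressor of AFP in mouse liver, was lower (-1.86 ± 0.30), as was LIN28B (-1.81 ± 0.30), an RNA-binding protein of fetal cells. DLK1 (2.26 ± 0.31) and the nuclear receptor NR2F1 (1.88 ± 0.33) were higher.

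Of 14 receptors and partners tested, 6 were higher and 0 lower, against 1 higher by total count and 1 higher with all 9 libraries. They included ITGB5 (1.18 ± 0.28), an integrin chain for vitronectin, FCGRT (1.15 ± 0.28), the receptor that recycles albumin, and TFRC (1.22 ± 0.31), the transferrin receptor. Of 20 genes for export from the endoplasmic reticulum, 5 were higher and 3 lower, shares near those of all tested genes, and by total count 3 were higher and 12 lower. With all 9 libraries 0 passed in either direction. The vesicle-coat genes SEC24D (-1.60 ± 0.27) and SEC24A (-1.42 ± 0.27) were lower, and the folding enzymes P4HB (1.74 ± 0.34) and PDIA3 (1.56 ± 0.31) were higher. Of 11 genes for acute phase signalling, 1 was higher (SOCS3, 3.29 ± 0.47) and 2 lower (IL1R1, -1.30 ± 0.31, and NFKB1, -0.70 ± 0.26), and by total count 1 was higher and 6 lower.

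**Figure D5:**
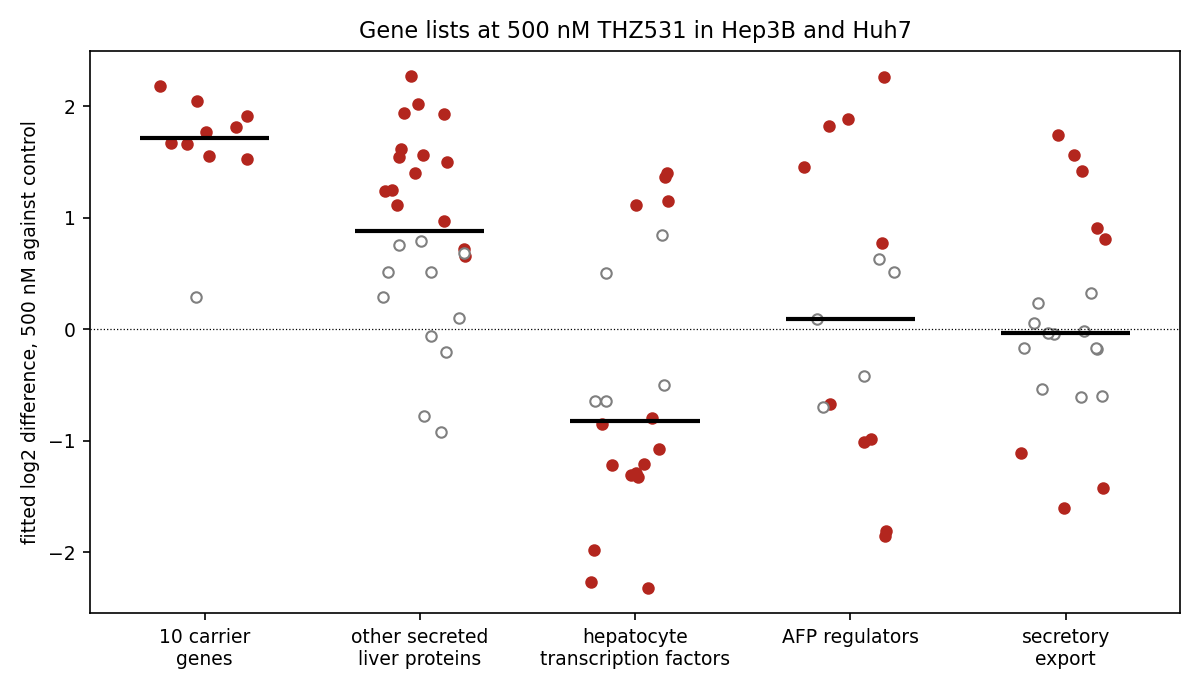
Fitted log2 differences of 500 nM against control in Huh7 and Hep3B for the 10 carrier genes and 4 gene lists; each point is a gene, filled where the adjusted p was under 0.05, and bars are medians. The medians are 1.72 for the carriers, 0.88 for other secreted liver proteins, -0.82 for hepatocyte transcription factors, 0.09 for AFP regulators and -0.04 for export genes.

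Summed mesenchymal and immune markers also stood higher with dose in both lines, though a single gene gave most of each sum. The 10 mesenchymal markers summed to 8544, 11420 and 22410 CPM in Huh7 and to 3114, 5193 and 6723 CPM in Hep3B at 0, 250 and 500 nM, with 7 of 9 tested higher at 500 nM and 0 lower. By total count 2 of the 9 were higher, and with all 9 libraries 0 of 10 tested. Of the mesenchymal sums FN1 gave 6822, 8621 and 17150 CPM in Huh7 and 1925, 2920 and 3881 CPM in Hep3B. ZEB1 went down with dose in Huh7, at 28.4, 18.2 and 15.1 CPM. The 6 immune markers summed to 122.4, 341.1 and 620.7 CPM in Huh7 and to 76.8, 116.5 and 146.9 CPM in Hep3B. Of these sums LYZ gave 120.6, 335.8 and 611.0 CPM in Huh7 and 71.0, 111.1 and 137.5 CPM in Hep3B. Both tested immune markers, LYZ and CD14, were higher, by total count only LYZ, and 2 to 4 of the 6 were at 0 in each library. The 4 endothelial markers summed to 3.51 CPM or less, and the 1 tested did not pass. The part of these markers in the rise of the carriers was not tested. Of the 12 hepatocyte markers outside the carriers, 6 were higher and 3 lower, and by total count 4 were higher and 3 lower. Fewer were higher without the untreated Huh7 library, a fit that leaves 1 control.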

How the data were processed

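Counts were deposited by the authors as one table of whole-number read counts per gene for 9 libraries, not normalized. Reads were aligned with HISAT2 and counted with HTSeq on GRCh38 (hg38), per the submitters' processing notes; not given in the sources used here are the versions, the annotation release and the strand setting. Totals ranged from 5701981 to 20657610 counts.

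Counts were tested with edgeR 4.0.16 (R 4.3.3): filterByExpr, TMM factors, glmQLFit and glmQLFTest, two-sided, with Benjamini-Hochberg adjustment across every tested gene and a threshold of 0.05. A dose fit used 6 libraries of Huh7 and Hep3B with line and dose as terms (15191 genes), so a difference in response between the lines counts as spread. The line fit used 9 libraries with a treated term per line (15479 genes, 3 residual degrees of freedom), taking 250 and 500 nM as 2 treated libraries, so a dose difference counts as spread. Within-line log2 ratios used a prior count of 2. DESeq2 1.42.0, other scalings, no filter and left-out libraries were alternatives; settings of the dose fit were applied to the gene lists after seeing the data. Coding lengths came from GENCODE 29, which held 98.04% of the table's genes, and promoters from RefSeq.

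Both fits were tested on simulated data. Estimates were close to the simulated folds and false calls were rare, but the line fit, simulated for treated Huh7, missed most 2-fold changes. The simulation changed only 50 genes per fold, with the same spread for all genes. In the dose fit each changed alike in both lines. In the data 41.6% of tested genes were called at 500 nM, so the rate of false calls in the data was not tested. A recovery limit first set for all folds was kept for 4-fold changes only, since 2-fold recovery failed it in the line fit.

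The members and gene lists were chosen with earlier results of these data known. The text names all 10 genes, up to 4 genes of each list with the smallest p at 500 nM (some items are not reported here), list genes beside a member, and the 5 nearest patterns to ALB and AFP; HNF4A among the transcription factors was added after its values were seen.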

Additional observations from a re-analysis of the deposited data

How the results depend on the processing

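Of the 10 genes, 9 were higher at 500 nM, and leaving out single libraries gave 4 to 9, all 9 libraries 2, and no replicate block (no line term) 0. At 250 nM 3 were higher, against 0 to 7 with a library left out, 0 with all 9 libraries, 0 with no replicate block and 7 with only the 4 libraries compared. Between doses the count was 0, and 0 to 8 with a library left out. Treated Hep3B gave 0, against 1 by total count with or without mitochondrial genes, 2 with no filter, 2 by DESeq2 and 0 to 6 with a library left out. Treated Huh7 gave 8, against 5 with DESeq2's size factors and 0 to 9 with a library left out. The line term served as the block because the same line gave treated and control cells, and libraries carry no other pairing. Without that term 0.0% of all tested genes were called at 500 or at 250 nM, so the 0 there is not particular to these genes. At 250 nM 1.06% of all tested genes were called higher with all 9 libraries, and 19.2% with only the 4 libraries compared. For treated Hep3B 9.82% of all tested genes were called higher by the fit used above. That share was 6.99% by total count, 7.8% without mitochondrial genes, 6.82% with no filter and 10.8% by DESeq2. For treated Huh7 it was 13.3% by the fit used above and 12.2% with DESeq2's size factors. In both lines and between doses the share of all tested genes also moved with the library left out. At 500 nM it was lower with any library left out than with all 6.

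Signs turned as follows, and the cause was not tested. HP at 500 nM was -0.481 by total count and -0.342 without mitochondrial genes; at 250 nM -0.346 and -0.265; between doses -0.135 and -0.077. AFP at 250 nM was -0.012 with all 9 libraries. With single libraries left out, the log2 values ran from -0.69 to 1.06 for HP in 500 nM against control, -0.55 to 0.80 for HP in 250 nM against control, -0.84 to 0.92 for HP in 500 nM against 250 nM, -0.30 to 0.75 for TTR in Huh7 response minus Hep3B response, -0.027 to 1.20 for VTN in Huh7 response minus Hep3B response, -0.044 to 1.12 for AMBP in Huh7 response minus Hep3B response. Of 910 gene values under alternatives, 768 kept direction and side of the threshold, 74 lost a call, 54 gained one and 14 turned sign. Single libraries per line and dose and the low HP counts limit precision.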
